A study of Mus musculus with 186 samples.

Results

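The 9 genes described here are products of the secretory cells that line the conducting airways: Scgb1a1, Scgb3a1 and Scgb3a2 (secretoglobins), Cyp2f2 and Aldh1a1 (metabolic enzymes), Bpifa1, Bpifb1 and Reg3g (airway defence proteins) and Hp (haptoglobin). They were listed by name as genes of club and other airway secretory cells, with earlier results of these data known. The rule itself uses no measured value. They were read as the rows of the expected-count table whose Ensembl identifiers carry these names in GENCODE M21. Each gene had 1 row, so that 9 of the 22095 gene IDs in the table are described. All 9 passed the filter on low counts that left 15647 genes for testing in lung. On GRCm38, Scgb1a1 lies at chr19:9083636-9087958 (minus strand), Aldh1a1 at chr19:20492715-20643465 (plus), Scgb3a1 at chr11:49663610-49665118 (plus), Scgb3a2 at chr18:43764289-43767399 (plus), Cyp2f2 at chr7:27119909-27133660 (plus), Reg3g at chr6:78466269-78468872 (minus) and Hp at chr8:109575128-109579172 (minus). Bpifa1, at chr2:154142880-154149219, and Bpifb1, at chr2:154190818-154220369, are neighbours on the plus strand. All are annotated as protein-coding, and values are for their annotated exons. Exons of Cyp2f2 overlap those of an antisense gene, Gm15883, which has no row in the count table, and the library kit keeps strand.

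Club cells are non-ciliated secretory cells of the bronchioles. They secrete secretoglobins into the airway lining fluid, clear xenobiotics through cytochrome P450 and aldehyde dehydrogenase enzymes, and can divide to renew the airway epithelium. Mucous and serous cells of larger airways share part of this programme and add mucins, bactericidal/permeability-increasing fold proteins (the BPIF family) and C-type lectins that bind bacteria.

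The animals were female C57BL/6 mice of about 12 weeks in a model of scleroderma, a fibrotic disease of skin and internal organs. Bleomycin, an antibiotic that breaks DNA, was injected under the back skin at 10 mg/kg/day on 5 days a week over 2 weeks, and control mice received phosphate-buffered saline (PBS). Mice kept past day 14 were dosed orally from day 12, BID, with vehicle or with SB525334 at 30 mpk, an inhibitor of ALK5, the type I receptor kinase for TGF-beta. Bulk RNA of the superior lobe of the lung was sequenced in 93 libraries. Bleomycin and PBS groups without oral dosing were taken on day 7 (7 bleomycin and 8 PBS libraries) and day 14 (8 and 8). Bleomycin with vehicle and PBS with vehicle were taken on day 21 (7 and 8), day 28 (7 and 7) and day 42 (8 and 8), and bleomycin with SB525334 on day 21 (9) and day 28 (8). No PBS group received SB525334, and the drug-treated comparisons share their vehicle libraries with the comparisons of bleomycin and PBS. The labels number the libraries within a group but do not state that each came from a separate mouse, so that p-values measure the spread between libraries.

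Total expected counts ran from 4.79 M to 38.34 M per lung library (M, mega-counts), with a median of 19.8 M. The libraries were spread over 2 plates, as coded in the library names, which were a term in each test. On day 28, 12 libraries of plate 1 stood apart from all others: 6 of 8 with SB525334, 4 of 7 with vehicle after bleomycin and 2 of 7 with PBS. Genes of cytosolic ribosomal proteins held 3.42% to 14.6% of their counts, against 1.73% to 2.90% in the other 81 lung libraries. A further 7 libraries also stood apart. Counts were concentrated in 10 genes in bleomycin day 7 replicates 2 and 6. Genes of another tissue were high in bleomycin day 42 replicate 1 (liver), in PBS day 7 replicates 5 and 6 and PBS day 14 replicate 6 (epidermis and hair), and in bleomycin with vehicle day 28 replicate 2 (squamous epithelium and muscle). All 19 are in the values below. Refits without these sets covered bleomycin against PBS, SB525334 against vehicle and the bleomycin effect over days, and no other test. Where a member gained or lost a call there, a value without them is given too.

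RefSeq held promoter windows on GRCm38.p6 for 6 of the 9 genes, all but Scgb1a1, Scgb3a2 and Hp. The 250 bases before a start are shown for the members whose bleomycin effect turned out to differ between days, where a window was held, and for Cyp2f2, as the sequence context of the genes that the results turn on. They were searched on both strands for 5 short motifs of airway and inflammation-related transcription factors: CAAGTG (NKX2-1), TTGCNNAA (C/EBP), TGTTTNC (FOXA), TGANTCA (AP-1) and TTCNNNGAA (STAT). Matches are in capitals. A match is a string of letters, not a binding site, and none of the motifs overlapped another in these windows. For Cyp2f2 the RefSeq window runs on to position 27119954, past the GENCODE gene start, and only its first 204 bases are shown.
Scgb3a1, chr11:49663345-49663594, plus strand: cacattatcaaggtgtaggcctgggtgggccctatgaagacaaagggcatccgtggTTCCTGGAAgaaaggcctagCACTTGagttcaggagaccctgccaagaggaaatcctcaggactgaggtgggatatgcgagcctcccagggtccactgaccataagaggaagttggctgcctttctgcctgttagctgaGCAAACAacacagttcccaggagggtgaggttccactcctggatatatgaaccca
Bpifa1, chr2:154142630-154142879, plus strand: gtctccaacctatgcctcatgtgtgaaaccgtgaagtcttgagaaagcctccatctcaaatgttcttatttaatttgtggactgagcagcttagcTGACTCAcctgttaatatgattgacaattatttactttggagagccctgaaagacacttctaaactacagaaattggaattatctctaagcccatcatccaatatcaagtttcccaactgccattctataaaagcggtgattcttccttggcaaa
Bpifb1, first of 2 starts, chr2:154190568-154190817, plus strand: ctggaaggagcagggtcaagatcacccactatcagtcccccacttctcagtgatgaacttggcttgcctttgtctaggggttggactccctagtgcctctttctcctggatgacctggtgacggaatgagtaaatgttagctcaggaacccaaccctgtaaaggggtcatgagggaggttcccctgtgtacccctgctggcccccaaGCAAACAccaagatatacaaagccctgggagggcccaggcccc
Reg3g, chr6:78468875-78469124, minus strand: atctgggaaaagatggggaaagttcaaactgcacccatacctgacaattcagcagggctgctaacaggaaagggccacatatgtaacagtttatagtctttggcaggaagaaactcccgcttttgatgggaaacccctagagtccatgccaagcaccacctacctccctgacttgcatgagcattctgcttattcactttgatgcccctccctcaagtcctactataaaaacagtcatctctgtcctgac
Cyp2f2, chr7:27119705-27119908, plus strand: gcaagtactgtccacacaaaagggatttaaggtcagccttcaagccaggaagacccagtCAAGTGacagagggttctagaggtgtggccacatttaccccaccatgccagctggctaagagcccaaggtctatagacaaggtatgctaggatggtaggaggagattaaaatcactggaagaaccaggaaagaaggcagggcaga

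The Scgb3a1 window held 3 of the 5 motifs: STAT at -194, NKX2-1 at -174 and FOXA at -55, counted from the start. Bpifb1 held a FOXA match at -43, Bpifa1 an AP-1 match at -155 and Cyp2f2 an NKX2-1 match at -191, and the Reg3g window held none of these motifs. The Cyp2f2 position is counted from its RefSeq start, which lies past the last base shown. Of the windows not shown, the first start of Aldh1a1 had AP-1 at -57 and C/EBP at -13, its second start NKX2-1 at -115, and the second start of Bpifb1 STAT at -146. Such matches are common. Of 32851 RefSeq windows of this length, 17.8% held the FOXA motif, 11.6% NKX2-1, 9.6% C/EBP, 7.0% STAT and 6.7% AP-1.

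Scgb1a1 was by far the highest of the 9 in lung. Per kilobase of exon, CPM values (counts scaled to a common library size with TMM factors) in the 39 PBS libraries averaged 23770 ± 10690 (SD) for Scgb1a1, the gene of club cell secretory protein. Next came Cyp2f2 at 701 ± 167, Scgb3a2 at 587 ± 607 and Hp at 407 ± 86.5. Scgb3a1 at 234 ± 172 and Aldh1a1 at 206 ± 29.2 followed, then Bpifa1 at 104 ± 92.8, Bpifb1 at 19.4 ± 9.62 and Reg3g at 15.5 ± 10.8. Neighbours in this order lay within 1 SD of each other (the larger of the 2 SDs), except at the steps from Scgb1a1 to Cyp2f2, from Hp to Scgb3a1 and from Aldh1a1 to Bpifa1. In the 39 PBS libraries of skin, sequenced in the same study, Bpifa1, Bpifb1, Scgb3a1 and Reg3g did not pass the filter on low counts. Scgb1a1 had a median of 7.12 CPM in PBS skin and 10970 in PBS lung. Not scaled by length, Cyp2f2 in PBS lung ranged from 826 to 2316 CPM and Reg3g from 5.22 to 117 CPM, a narrow and a wide spread among controls.

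**Figure D1:**
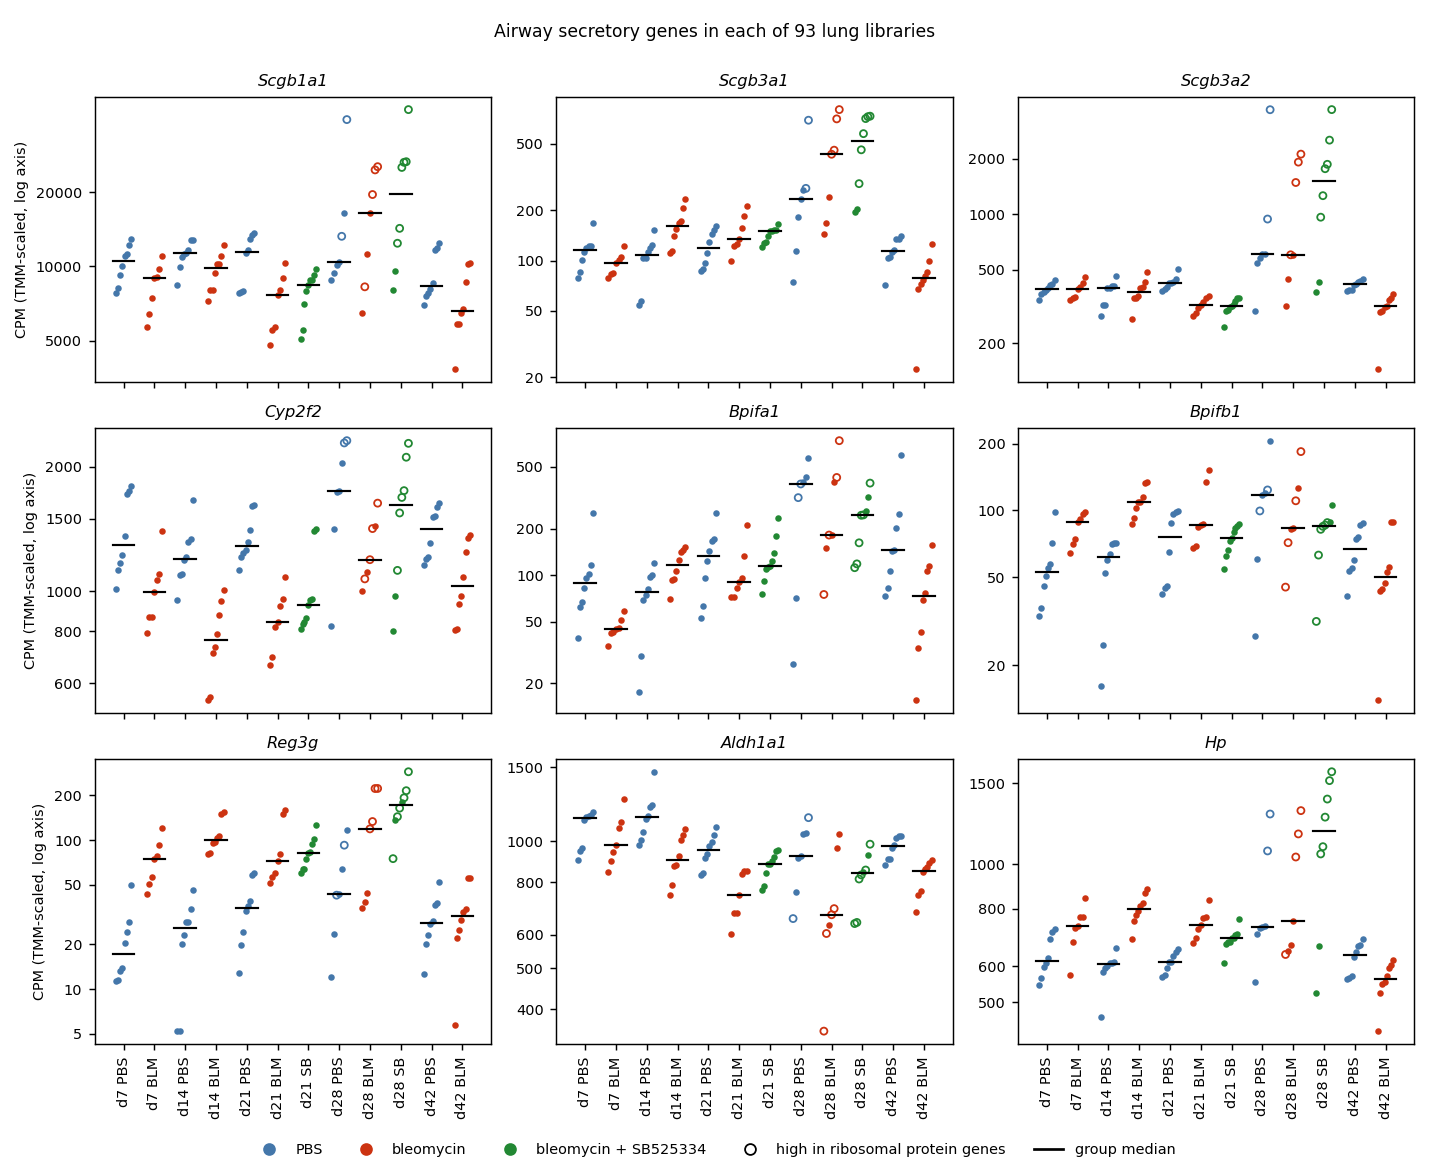
TMM-scaled CPM on a log axis in each lung library, 1 panel per gene, by day and treatment; points are libraries, black lines group medians and open circles the 12 libraries high in ribosomal protein genes. Reg3g bleomycin libraries of day 14 (81.0 to 155 CPM) all lie above the PBS libraries (5.22 to 46.4 CPM), and most open circles of day 28 lie above the other libraries of that day for Scgb3a2.

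Bleomycin moved the members in both directions. On day 7, 1 of 9 rose and 2 fell, where 13.9% and 17.8% of the 15647 genes rose and fell. On day 14, 4 rose and 2 fell, against 21% and 25.4% of genes. On day 21, 1 rose and 2 fell, against 15.9% and 19.4%, and on day 28 likewise 1 and 2, against 19.7% and 18.4%. On day 42 none rose and 2 fell, against 12.6% and 6.77% of genes. For a set of 9, the counts of days 7, 21 and 28 were near the shares of all genes. The median log2 fold change of the 9 was -0.07, 0.43, -0.31, 0.05 and -0.38 from day 7 to day 42, where the median of all genes lay between -0.03 and 0.02. Groups that did not overlap were counted for 0, 3, 3, 0 and 1 members on these days. Of all genes, 11%, 15.8%, 19.2%, 0.23% and 4.89% had groups that did not overlap. Fewer cells of a type and less RNA per cell cannot be told apart in bulk RNA.

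Cyp2f2, the cytochrome P450 that activates naphthalene and similar inhaled toxicants in club cells, fell on all 5 days. On day 14 its level in PBS libraries ran from 951 to 1661 CPM (median 1200) and after bleomycin from 546 to 1009 (median 762). The groups met only at their edges, and 8 of 8 bleomycin libraries were below the PBS mean. The log2 fold change was -0.68 ± 0.12 (SE; edgeR adjusted p = 2.34e-06), a level 1.60-fold lower. On day 21 PBS libraries lay between 1126 and 1619 CPM (median 1287) and bleomycin libraries between 665 and 1083 (median 841), with no overlap. That difference was again -0.68 ± 0.12 (edgeR adjusted p = 8.66e-06). On day 7 the log2 fold change was -0.47 ± 0.12 (edgeR adjusted p = 0.0018), from 1014 to 1796 CPM (median 1293) in PBS and 791 to 1397 (median 995) after bleomycin. On day 42 it was -0.38 ± 0.12 (edgeR adjusted p = 0.0142), from 1159 to 1636 CPM (median 1412) down to 806 to 1371 (median 1028), and all 8 bleomycin libraries lay below the PBS mean. Within plate 1 and plate 2 alone the day 7, 14, 21 and 42 differences were all negative, from -0.72 to -0.39 (day 14 had 1 library of each group on plate 1). Without bleomycin day 42 replicate 1, the library holding liver genes, the day 42 value was -0.32 (edgeR adjusted p = 0.0615). The scaling and dispersions of the full fit were kept there. Refitted without all 19 libraries that stood apart, it was -0.32 (edgeR adjusted p = 0.00739). Of 16 alternative settings, that one included, 13 called it.

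The day 28 value of Cyp2f2 rested on the libraries that stood apart. With all libraries it was -0.43 ± 0.13 (edgeR adjusted p = 0.00578), from 826 to 2316 CPM in PBS and 1000 to 1635 after bleomycin. Without the 12 libraries high in ribosomal protein genes, which left 5 PBS and 3 bleomycin libraries, it was -0.23 (edgeR adjusted p = 0.452). It was -0.66 within plate 1 and 0.15 within plate 2, where each group had 2 libraries.

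Aldh1a1, a retinaldehyde dehydrogenase that oxidises retinal and other aldehydes, fell on days 14, 21 and 28. On day 14 PBS libraries had 978 to 1462 CPM (median 1141) and bleomycin libraries 744 to 1068 (median 902). All 8 bleomycin libraries were below the PBS mean, with some overlap, and the log2 fold change was -0.33 ± 0.10 (edgeR adjusted p = 0.00601). On day 21 the levels were 832 to 1084 CPM (median 952) and 604 to 850 (median 747), which overlapped slightly, with a difference of -0.34 ± 0.11 (edgeR adjusted p = 0.00965). Within plates 1 and 2 the day 21 differences were -0.34 and -0.34. On day 7 Aldh1a1 had a log2 fold change of -0.07 ± 0.11 (edgeR adjusted p = 0.657). On day 42 it was -0.24 ± 0.10 (edgeR adjusted p = 0.0983), and -0.25 without the 12 libraries high in ribosomal protein genes (edgeR adjusted p = 0.0126). The day 28 value, -0.40 ± 0.11 (edgeR adjusted p = 0.00324), became -0.13 (edgeR adjusted p = 0.621) without the 12 libraries high in ribosomal protein genes. It was -0.68 within plate 1 and 0.18 within plate 2.

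Reg3g, a secreted C-type lectin that kills Gram-positive bacteria, had the largest rise of the 9. On day 7 PBS libraries held 11.4 to 49.8 CPM (median 17.1) and bleomycin libraries 43.6 to 121 (median 74.8). Only PBS replicate 3 reached the bleomycin range, and the log2 fold change was 1.76 ± 0.38 (edgeR adjusted p = 0.000196), or 3.39-fold. On day 14 the ranges were 5.22 to 46.4 CPM (median 25.5) and 81.0 to 155 (median 99.9), with no overlap and a log2 fold change of 2.20 ± 0.38 (edgeR adjusted p = 1.24e-06), or 4.60-fold. On day 21 they were 12.9 to 59.9 CPM (median 34.9) and 51.2 to 159 (median 72.3), an increase of 1.29 ± 0.38 (edgeR adjusted p = 0.00481). Within plates the differences on these days were positive in both, from 1.18 to 2.60. On day 42 the groups lay on top of each other, at 12.5 to 52.7 CPM (median 27.9) and 5.76 to 55.4 (median 31.0), with a log2 fold change of 0.07 ± 0.37 (edgeR adjusted p = 0.937).

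On day 28 the Reg3g increase, 1.03 ± 0.39 (edgeR adjusted p = 0.0316), did not hold without the libraries that stood apart. The 4 bleomycin libraries high in ribosomal protein genes held 119 to 222 CPM, and the other 3 held 35.3, 38.4 and 43.8 CPM, within the PBS range of 12.1 to 117. Without all 12 such libraries the log2 fold change was -0.31 (edgeR adjusted p = 0.829). Leaving out any 1 of bleomycin replicates 1 and 5 or PBS replicates 3, 4 and 6 also gave an adjusted p above 0.05, with values of 0.81 to 0.97.

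Bpifb1 and Bpifa1 are neighbouring genes on chromosome 2 that encode secreted proteins of the BPIF family, which bind bacterial lipids and are made by airway secretory and glandular cells. Bpifb1 rose on day 14, from 16.0 to 71.6 CPM (median 61.5) in PBS to 86.6 to 134 (median 109) after bleomycin. Every bleomycin library lay above every PBS library, and the log2 fold change was 1.04 ± 0.27 (edgeR adjusted p = 0.000896), with 0.63 and 1.26 within plates 1 and 2. On day 7, all 7 bleomycin libraries (64.1 to 98.4 CPM, median 88.4) were above the PBS mean (33.3 to 98.01 CPM, median 52.8), and the value of 0.58 ± 0.28 had an edgeR adjusted p of 0.1. Without PBS day 7 replicate 3, the highest control, that value was 0.74 (edgeR adjusted p = 0.0384). On days 21, 28 and 42 Bpifb1 had log2 fold changes of 0.42, -0.10 and -0.30, none of which passed the test.

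Bpifa1, also known as SPLUNC1, fell on day 7 and day 42. On day 7 PBS libraries spread from 39.2 to 252 CPM (median 89.5), while bleomycin libraries lay between 35 and 58.7 (median 44.6), all 7 below the PBS mean. The fall of -1.16 ± 0.43 (edgeR adjusted p = 0.0309) was -0.99 within plate 1 and -0.97 within plate 2. Without PBS replicate 3, at 252 CPM, it was -0.80 (edgeR adjusted p = 0.157), and without bleomycin replicate 5 or 6 the adjusted p was 0.0505 or 0.0563. Without all 19 libraries that stood apart it was -1.13 (edgeR adjusted p = 0.0583), and without the 2 dominated by 10 genes -1.07 (edgeR adjusted p = 0.0982). On day 42 PBS libraries spread from 73.1 to 596 CPM (median 144) and bleomycin libraries from 15.6 to 156 (median 72.8). That fall was -1.38 ± 0.41 (edgeR adjusted p = 0.0103), with -0.99 and -1.93 within the plates. Without PBS day 42 replicate 6, at 596 CPM, it was -0.89 (edgeR adjusted p = 0.111). On day 14 Bpifa1 was 17.5 to 120 CPM (median 78.2) in PBS and 70.6 to 153 (median 116) after bleomycin, with a log2 fold change of 0.65 ± 0.41 that did not pass (edgeR adjusted p = 0.183). On days 21 and 28 the values were -0.31 ± 0.42 and -0.03 ± 0.43, and the groups overlapped widely.

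Among the secretoglobins, small secreted proteins that dimerise, Scgb3a1 rose on day 14. It went from 54.0 to 153 CPM (median 108) in PBS to 111 to 236 (median 161) after bleomycin, and 8 of 8 bleomycin libraries were above the PBS mean. The log2 fold change was 0.66 ± 0.27 (edgeR adjusted p = 0.0401), with 0.43 and 0.73 within the plates. Leaving out 1 of bleomycin replicates 4, 6 and 7 or PBS replicates 3 and 7 gave 0.56 to 0.64 and an adjusted p of 0.0562 to 0.0978. On day 28 the value was 0.69 ± 0.29 (edgeR adjusted p = 0.0534), from 74.5 to 694 CPM in PBS and 145 to 803 after bleomycin, and without the libraries high in ribosomal protein genes it was 0.08 (edgeR adjusted p = 0.947). It was 1.12 without PBS day 28 replicate 2 (edgeR adjusted p = 0.000921), and 0.77 to 0.84 and called without any 1 of bleomycin replicates 2, 6 and 7. DESeq2 called it at 0.70 (adjusted p = 0.0463). It was called, at 0.85, without the 5 libraries holding other tissue (edgeR adjusted p = 0.0113). On day 42 PBS libraries lay at 71.8 to 140 CPM (median 114) and bleomycin libraries at 22.5 to 126 (median 78.6), a difference of -0.56 ± 0.27 that did not pass (edgeR adjusted p = 0.147). Without the 12 libraries high in ribosomal protein genes it was -0.55 and passed (edgeR adjusted p = 0.0345). That fit kept bleomycin day 42 replicate 1, the library holding liver genes. Without all 19 libraries that stood apart the value was -0.40 and did not pass (edgeR adjusted p = 0.114).

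Scgb1a1 and Scgb3a2 passed on no day in edgeR with all libraries and only group and plate as terms. Scgb1a1 was 7819 to 13680 CPM (median 11470) in PBS on day 21 and 4827 to 10350 (median 7639) after bleomycin, with 7 of 7 bleomycin libraries below the PBS mean and a log2 fold change of -0.55 ± 0.24 (edgeR adjusted p = 0.0607). On days 7, 14 and 42 its values were -0.30 ± 0.24, -0.22 ± 0.23 and -0.38 ± 0.23, with 6 of 7, 7 of 8 and 6 of 8 bleomycin libraries below the PBS mean. Scgb3a2, a secretoglobin of small airways that is also called UGRP1, was 385 to 506 CPM (median 425) in PBS and 283 to 361 (median 324) after bleomycin on the same day. Those groups did not overlap, yet the log2 fold change of -0.43 ± 0.29 had an edgeR adjusted p of 0.265. On day 42 Scgb3a2 again had groups that did not overlap, at 382 to 447 CPM (median 417) and 145 to 370 (median 317), with -0.44 ± 0.28 (edgeR adjusted p = 0.309).

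The widest ranges of Scgb3a2 were those of day 28, where it ran from 300 to 3697 CPM within PBS and from 379 to 3702 CPM with SB525334. When the 12 day 28 libraries were left out of the shared fit, the other days kept nearly the same log2 fold changes and more of them passed. Scgb3a2 was then lower on day 21, -0.39 (edgeR adjusted p = 0.00449), and on day 42, -0.45 (edgeR adjusted p = 0.00147). Scgb1a1 was then lower by -0.29, -0.22, -0.53 and -0.40 on days 7, 14, 21 and 42 (edgeR adjusted p = 0.0123, 0.0371, 6.18e-06 and 0.000565). In that fit 7 of 9 members fell on day 42, where 13.1% of all genes did. It kept bleomycin day 42 replicate 1, the library holding liver genes. Without all 19 libraries that stood apart, 6 of 9 fell on day 42, where 14.5% of all genes did. On day 28 Scgb1a1 and Scgb3a2 had -0.18 and -0.23 without these libraries, and none of the 9 members passed, with 3.71% of all genes higher and 1.1% lower. With all libraries but PBS day 28 replicate 2, which held 39280 CPM of Scgb1a1 and 3697 of Scgb3a2, the day 28 values were 0.53 and 0.81 (edgeR adjusted p = 0.0432 and 0.00909).

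Haptoglobin, which binds free haemoglobin, is best known as an acute-phase protein of the liver and is also made in lung epithelium. Hp rose on day 14, from 465.5 to 658 CPM (median 605) to 686 to 883 (median 800), with no overlap between groups. The log2 fold change was 0.43 ± 0.12 (edgeR adjusted p = 0.00167), and 0.56 and 0.41 within the plates. On day 21 the groups did not overlap either, at 569 to 653 CPM (median 612) and 675 to 836 (median 735), but 0.26 ± 0.12 did not pass (edgeR adjusted p = 0.078). On days 7, 28 and 42 the values were 0.19 ± 0.12, 0.10 ± 0.12 and -0.17 ± 0.12, and on day 42 all 8 bleomycin libraries were below the PBS mean. Without the 12 libraries high in ribosomal protein genes Hp was higher on day 7 (0.20, edgeR adjusted p = 0.00945) and day 21 (0.28, edgeR adjusted p = 0.000277) and lower on day 42 (-0.18, edgeR adjusted p = 0.0269). Of 16 listed liver genes, the 8 tested summed to 11.6 to 24.9 CPM after bleomycin and 8.14 to 22.2 CPM in PBS on day 14. Whether liver RNA added to the Hp level was not tested.

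**Figure D2:**
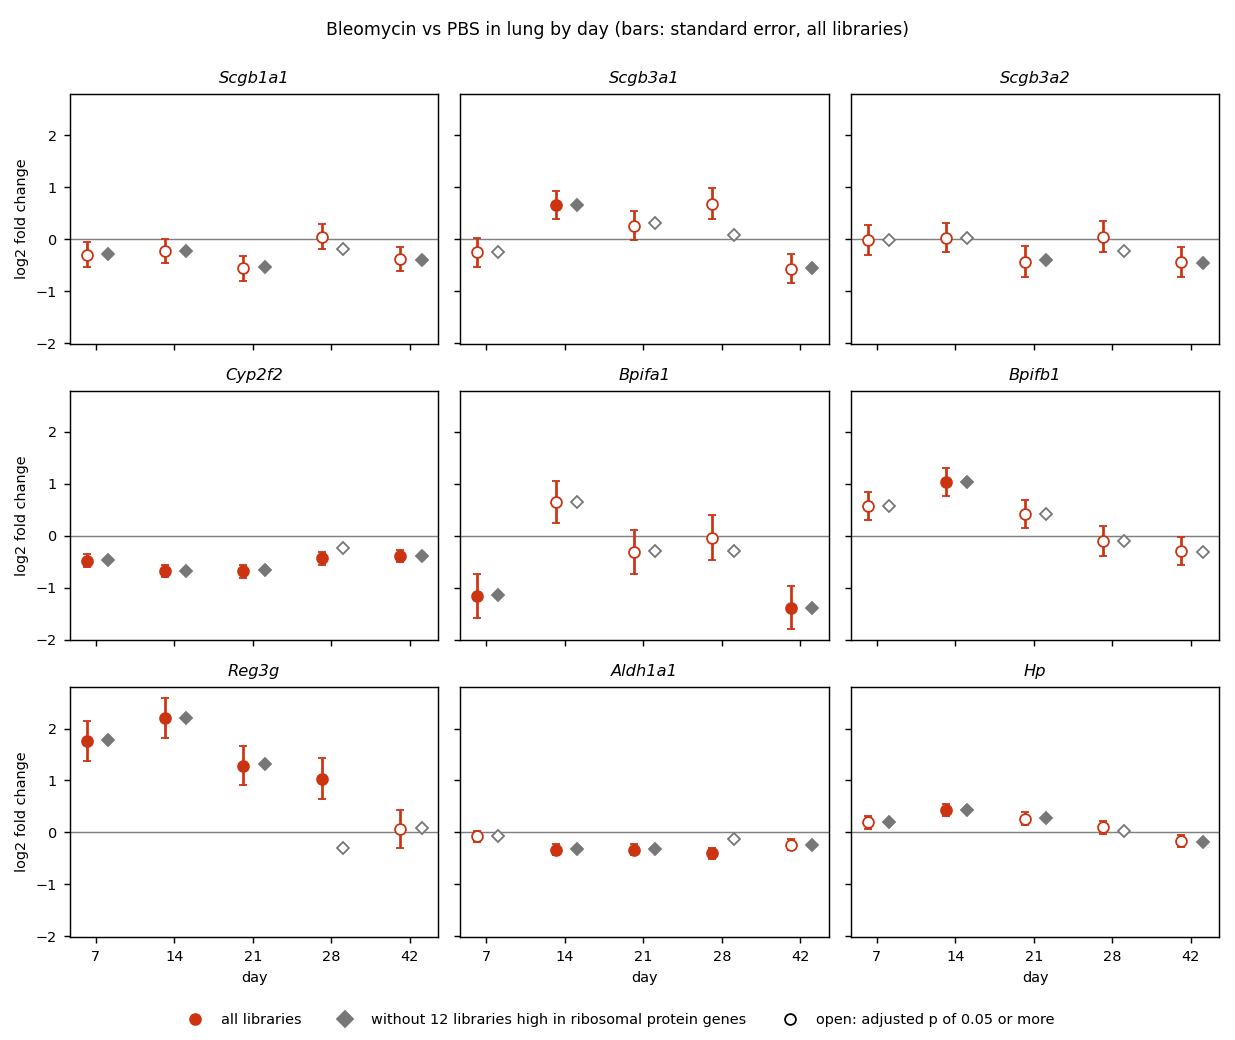
Log2 fold change of bleomycin against PBS by day for each gene, with all 93 libraries (red circles, bars are SE) and without the 12 day 28 libraries high in ribosomal protein genes (grey diamonds); filled symbols passed an adjusted p of 0.05. Cyp2f2 lies below 0 on each day with all libraries, Reg3g falls from 2.20 on day 14 to 0.07 on day 42, and the symbols separate mainly on day 28.

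The bleomycin effect differed between days for 5 of the 9 genes by an F test over the 5 days, where 26.5% of all genes passed. These were Reg3g (edgeR adjusted p = 0.0119), Bpifa1 (0.0246), Scgb3a1 (0.0269), Bpifb1 (0.0272) and Hp (0.0398). The same 5 had a lower bleomycin effect on day 42 than on day 14, with 15.3% of all genes passing in either direction. The difference of effects was -2.13 ± 0.52 for Reg3g, -2.03 ± 0.58 for Bpifa1, -1.34 ± 0.38 for Bpifb1, -1.22 ± 0.39 for Scgb3a1 and -0.60 ± 0.16 for Hp (edgeR adjusted p = 0.00265, 0.0104, 0.00958, 0.0215 and 0.00792). For Cyp2f2, by contrast, it was 0.29 ± 0.17 and for Aldh1a1 0.09 ± 0.15 (edgeR adjusted p = 0.235 and 0.709), so that a change of their effect was not detected. Between days 7 and 14 no member's effect passed, with 1.25% of genes passing and 2 members at an unadjusted p under 0.05, Bpifa1 (1.81 ± 0.59) and Scgb3a1 (0.91 ± 0.39). Between days 21 and 28 none passed and none had an unadjusted p under 0.05, with 1.46% of genes passing. Without all 19 libraries that stood apart, 8 of 9 members differed over the days, where 51% of all genes did, Cyp2f2 (edgeR adjusted p = 0.00767), Scgb3a2 (0.0186) and Aldh1a1 (0.0402) among them.

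Control libraries were not constant either. Among the 5 PBS groups, 5 members differed between days, where 21.7% of genes did: Bpifa1 (edgeR adjusted p = 0.000818), Scgb3a2 (0.000947), Scgb3a1 (0.00266), Bpifb1 (0.0286) and Scgb1a1 (0.0339). This test was not refitted without the libraries that stood apart. Among them, PBS day 28 replicate 2 was far above its group for Scgb1a1 (39280 CPM), Scgb3a1 (694 CPM) and Scgb3a2 (3697 CPM). Median Bpifa1 in PBS was 89.5, 78.2, 133, 388 and 144 CPM from day 7 to day 42. Day 28, with 2 of 7 PBS libraries high in ribosomal protein genes, had the highest median for Bpifa1, Bpifb1, Scgb3a1 and Scgb3a2. PBS mice of days 7 and 14 had no oral vehicle, and day and dosing cannot be told apart there.

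SB525334 given after bleomycin changed none of the 9 genes on day 21, where 0.403% of all genes passed, and none on day 28, where 8.37% did. Cyp2f2 and Aldh1a1 had an unadjusted p under 0.05 on day 21 in edgeR, and Hp and Aldh1a1 on day 28. DESeq2 also called no member on either day. Limma voom with quality weights called 2 members higher on day 21, and with the mean level of ciliated cell genes as a term in edgeR, Cyp2f2 on day 21 was 0.39 (edgeR adjusted p = 0.0102) and Hp on day 28 was 0.33 (edgeR adjusted p = 0.0383). No member had groups that did not overlap, against 0.518% and 0.102% of genes. On day 21 Cyp2f2 was 810 to 1417 CPM (median 929) with SB525334 and 665 to 1083 (median 841) with vehicle, a log2 fold change of 0.25 with a 95% confidence interval of 0.01 to 0.49 (edgeR adjusted p = 0.644). Aldh1a1 was 766 to 953 CPM (median 885) against 604 to 850 (median 747), or 0.21 with an interval of 0.01 to 0.42 (edgeR adjusted p = 0.662), and 9 of 9 treated libraries were above the vehicle mean. Reg3g was 59.9 to 126 CPM (median 82.4) against 51.2 to 159 (median 72.3), or -0.0047 with an interval of -0.73 to 0.72. Side by side with the PBS groups, which both comparisons share, Reg3g had a log2 fold change of 1.28 with SB525334 and 1.29 with vehicle, Cyp2f2 of -0.42 and -0.68, and Aldh1a1 of -0.12 and -0.34. Against PBS on day 21 the SB525334 group had 2 members called, Cyp2f2 and Reg3g, with 34.6% of genes called.

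On day 28 the SB525334 group held more libraries high in ribosomal protein genes than the vehicle group, 6 of 8 against 4 of 7. Hp was 524 to 1588 CPM (median 1178) with SB525334 and 636 to 1307 (median 750) with vehicle, a log2 fold change of 0.34 ± 0.12 (edgeR adjusted p = 0.0668). It was 0.50 within plate 1 and -0.24 within plate 2, and -0.17 without the 12 libraries, which left 2 treated and 3 vehicle libraries. Scgb3a2 was 0.57 with an interval of -0.02 to 1.15, and -0.17 without them. Reg3g was 75.1 to 288 CPM (median 172) against 35.3 to 222 (median 119), or 0.64 ± 0.38 (edgeR adjusted p = 0.258). Against PBS, the SB525334 group of day 28 had 3 members called higher, Reg3g at 1.67, Scgb3a1 at 0.89 and Hp at 0.43, with 51.8% of genes called. The PBS group held fewer libraries high in ribosomal protein genes, and this comparison was not refitted without them. Whether those libraries account for the 3 calls was not tested. The change of the SB525334 effect from day 21 to day 28 passed for no member, with 0.173% of genes passing and Hp (0.42 ± 0.17) at an unadjusted p under 0.05.

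**Figure D3:**
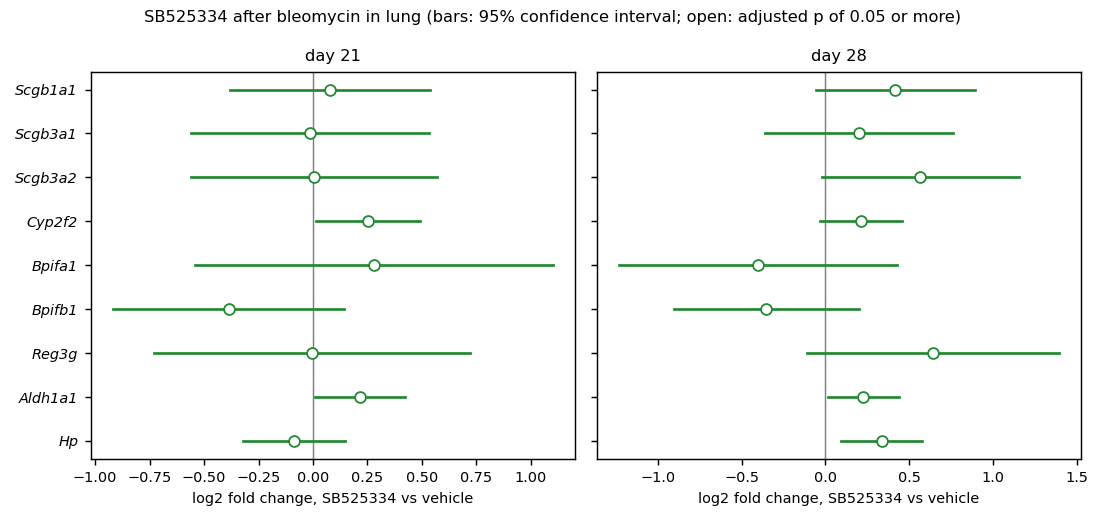
Log2 fold change of SB525334 against vehicle after bleomycin on days 21 and 28 for each gene, with 95% confidence intervals; open circles did not pass an adjusted p of 0.05. No gene passed on either day, and the day 28 intervals of Scgb3a2 (-0.02 to 1.15) and Reg3g (-0.11 to 1.39) are wide.

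Library by library, after group and plate were removed, the 9 genes did not vary as 1 block. Spearman's rho over the 93 lung libraries was 0.822 for Bpifa1 with Bpifb1, 0.804 for Bpifb1 with Reg3g and 0.753 for Scgb3a1 with Reg3g. It was 0.882 for Scgb1a1 with Scgb3a2, 0.681 for Scgb1a1 with Cyp2f2 and 0.605 for Cyp2f2 with Aldh1a1. Scgb3a1 also had 0.562 with Scgb1a1 and 0.687 with Scgb3a2. For Scgb1a1, Scgb3a2, Cyp2f2 and Aldh1a1 with Bpifa1, Bpifb1 and Reg3g it ran from -0.276 (Reg3g with Aldh1a1) to 0.36 (Scgb3a2 with Reg3g). These values are descriptions, since the genes share libraries, depth and tissue sampling. Genes of both sets had positive values with ciliated cell genes: against the mean of 23 ciliated cell genes, rho was 0.64 for Cyp2f2, 0.62 for Scgb1a1, 0.35 for Bpifb1 and 0.33 for Reg3g. Reg3g followed the goblet list (0.76), while Aldh1a1 ran against it (-0.40). Airway cartilage genes had rho of 0.31 with Bpifa1 and -0.44 with Scgb1a1.

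**Figure D4:**
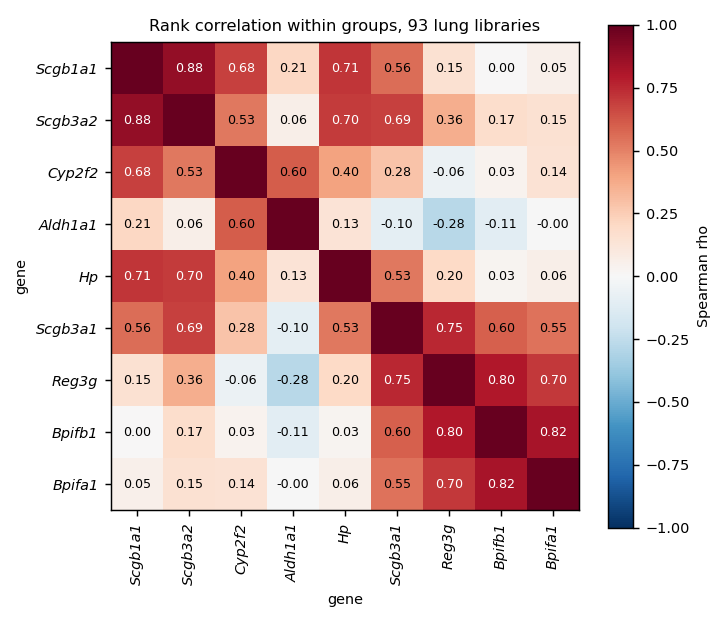
Spearman's rho between each pair of the 9 genes over 93 lung libraries, from log2 CPM after group and plate were removed; red is positive, blue negative. Scgb3a1, Reg3g, Bpifb1 and Bpifa1 form a block of positive values (0.545 to 0.822), and Scgb1a1, Scgb3a2 and Cyp2f2 another (0.527 to 0.882).

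The share of ribosomal protein genes, a property of the library, separated the members too. Its rho was 0.74 with Scgb3a2, 0.68 with Scgb1a1, 0.63 with Hp and 0.51 with Scgb3a1, but 0.12 with Cyp2f2, -0.03 with Bpifa1, -0.04 with Bpifb1 and -0.21 with Aldh1a1. In PBS day 28 replicate 2, with 14.1% of counts in ribosomal protein genes and the lowest total of all lung libraries, Scgb3a2 stood at 3697 CPM, while Bpifb1 stood at 124 CPM within the range of the other PBS libraries of that day (27.2 to 207). With this share as a term in the fit, the Scgb1a1 differences on days 7, 14, 21 and 42 were -0.36, -0.43, -0.55 and -0.35 (edgeR adjusted p = 0.0151, 0.00152, 0.000147 and 0.0192). Those of Scgb3a2 on days 21 and 42 were -0.42 and -0.39 (edgeR adjusted p = 0.00896 and 0.0205). With the mean ciliated level as a term instead, Scgb1a1 passed on days 14 and 21, at -0.50 and -0.50 (edgeR adjusted p = 0.0293 and 0.0412).

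**Figure D5:**
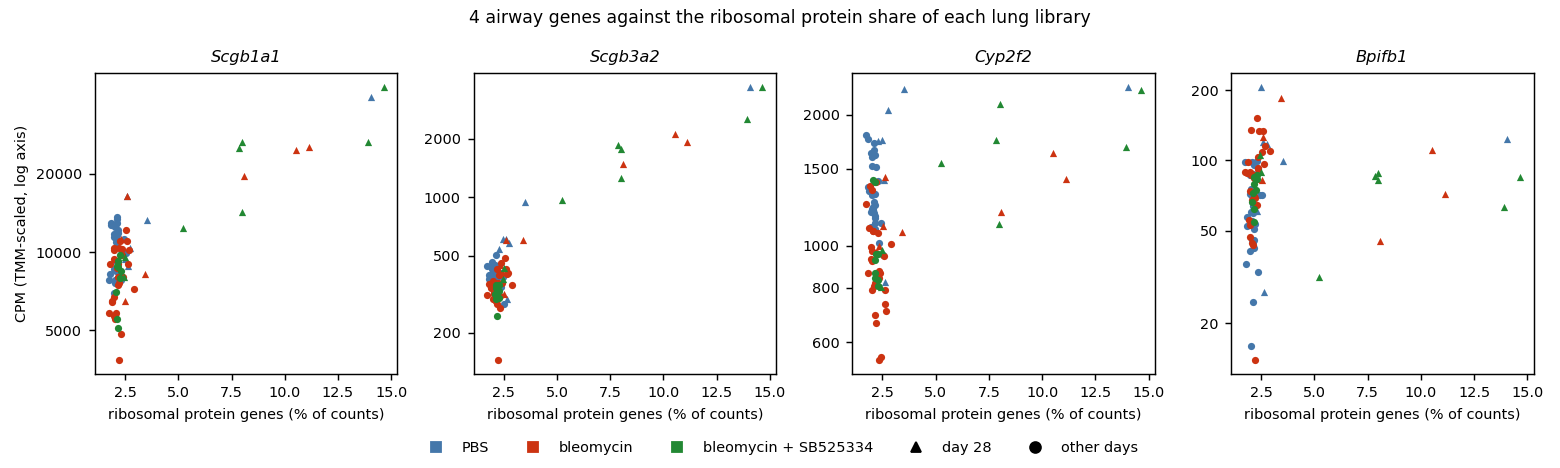
CPM on a log axis of Scgb1a1, Scgb3a2, Cyp2f2 and Bpifb1 in each lung library against the percent of its counts in ribosomal protein genes; colours are treatments and triangles day 28. Libraries above 3% are all of day 28, and there Scgb3a2 reaches 3702 CPM while Bpifb1 stays at or below 207 CPM.

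The genes most like each member within groups were those with the highest rho over the same 93 libraries. Scgb1a1 was closest to Sfta2 (0.884), 1110017D15Rik (0.855) and Tmem212 (0.853). Scgb3a2 was closest to Wfdc2 (0.927), Elof1 (0.881) and Fam183b (0.875), and Scgb3a1 to Gsto1 (0.815), Tff2 (0.787) and Aoc1 (0.786). Among the enzymes, Cyp2f2 was closest to Cyp2b10 (0.816), Cbr2 (0.815) and Selenbp1 (0.81), and Aldh1a1 to Ces1d (0.854), Cyp4b1 (0.783) and Crebl2 (0.764). Reg3g was closest to Agr2 (0.867), A2ml1 (0.781) and Tmc5 (0.741). Bpifb1 had A2ml1 (0.763), Gp2 (0.751) and Agr2 (0.711), and Bpifa1 had A2ml1 (0.705), Ltf (0.69) and B3galt2 (0.667). A2ml1, an alpha-2-macroglobulin-like protease inhibitor, was among the closest for all 3 defence genes. Hp was closest to Tst (0.822), Iah1 (0.809) and Dcxr (0.807).

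Of 24 other club cell genes, 6 rose and 7 fell on day 14, near the 21% and 25.4% of all genes, with a list median of -0.15 where that of all genes was -0.02. Gp2, an epithelial glycoprotein, rose by 2.75 ± 0.35, Ephx1, microsomal epoxide hydrolase, by 0.56 ± 0.07 and the glutathione transferase Gsto1 by 0.73 ± 0.13, while the P450 enzymes Cyp4b1 (-1.06 ± 0.16) and Cyp2b10 (-0.57 ± 0.12) fell. On the other days 4 rose and 5 fell (day 7), 3 and 9 (day 21), 7 and 4 (day 28) and 3 and 3 (day 42). Of all genes, 13.9%, 15.9%, 19.7% and 12.6% rose on those days, and 17.8%, 19.4%, 18.4% and 6.77% fell. On day 42 Ephx1 (0.54 ± 0.07) and Gp2 (1.34 ± 0.34) were still higher, and Cyp2b10 (-0.49 ± 0.12) and Cyp4b1 (-0.56 ± 0.16) still lower. SB525334 changed none of these genes on day 21, where 0.403% of all genes were called. On day 28, where 8.37% were, Ephx1 (0.29 ± 0.07) and the coumarin hydroxylase Cyp2a5 (0.94 ± 0.29) were higher with SB525334 than with vehicle. The aldehyde dehydrogenase Aldh3a1 (-1.37 ± 0.30) was lower. Without all 19 libraries that stood apart, which left few in either group, none of them was called on day 28, with 0.201% of all genes called.

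Of 9 goblet cell genes tested, 6, 7, 2, 3 and 4 rose from day 7 to day 42, where 13.9%, 21%, 15.9%, 19.7% and 12.6% of all genes rose, and none fell. The list medians were 1.79, 2.26, 0.42, 1.09 and 1.44. Without all 19 libraries that stood apart, 8, 10, 5, 1 and 6 of 11 tested rose and none fell. In that fit 22.4%, 31.6%, 26.8%, 0.176% and 14.4% of all genes rose. On day 14 the anion exchanger Slc26a4 rose by 2.59 ± 0.20, Agr2, a protein disulfide isomerase needed for mucin, by 3.32 ± 0.36, the mucin Muc5ac by 2.26 ± 0.39 and the mucus-associated Clca1 by 3.25 ± 0.64. Their summed level was 78.8 to 241 CPM after bleomycin and 15.3 to 65.3 CPM in PBS on day 14, and 44.0 to 199 against 24.1 to 45.6 CPM on day 42. Of the 4 that were not tested, Retnlb was at 0 in 59 of 93 libraries, Tff1 in 54, and Gcnt3 and Itln1 in 26 each. Their part in the change of Reg3g, Bpifb1 and Scgb3a1 was not tested.

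Of 23 ciliated cell genes, 2 rose and 5 fell on day 7, 5 and 1 on day 14, 1 and 1 on day 21, 0 and 5 on day 28 and 0 and 2 on day 42. Over these days 13.9%, 21%, 15.9%, 19.7% and 12.6% of all genes rose, and 17.8%, 25.4%, 19.4%, 18.4% and 6.77% fell. Without all 19 libraries that stood apart, 11 rose and 2 fell on day 14, where 31.6% and 30.2% of all genes did. On day 7 the multiciliation genes Mcidas (2.07 ± 0.33) and Deup1 (1.26 ± 0.19) rose while the axonemal genes Hydin (-0.64 ± 0.13) and Dnah9 (-0.46 ± 0.11) fell. On day 21 the summed ciliated level was 928 to 1251 CPM after bleomycin and 1079 to 1334 in PBS, where Cyp2f2 did not overlap between groups. With the mean ciliated level as a term Cyp2f2 stayed called on each of the 5 days, and Scgb3a1 on day 14 was 0.28 (edgeR adjusted p = 0.327). Basal cell genes fell for 6 of 7 on day 7 and 5 of 7 on day 14 and rose for 3 of 7 on day 28. Their summed level reached 1014 CPM in PBS on day 7, 929 in PBS on day 14 and 291 after bleomycin on day 28. The highest were PBS day 7 replicates 5 and 6 and PBS day 14 replicate 6, the libraries with epidermis and hair genes. On day 28 it was bleomycin replicate 2, that with squamous and muscle genes. Without the 5 libraries holding other tissue, 0 of 7 basal genes were called on day 7, and 1 rose and none fell on days 14 and 28. In that fit 15.7%, 23.8% and 23.1% of all genes rose on days 7, 14 and 28, and 17.1%, 25.5% and 21.4% fell.

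Of 14 airway transcription factors, 1, 2, 1, 1 and 1 rose and 2, 3, 2, 0 and 1 fell from day 7 to day 42. The shares of all genes that rose were 13.9%, 21%, 15.9%, 19.7% and 12.6%, and 17.8%, 25.4%, 19.4%, 18.4% and 6.77% fell. On day 14 Stat3 (0.35 ± 0.06) and Elf3 (0.51 ± 0.11) rose, and Nkx2-1 (-0.35 ± 0.11), Foxa1 (-0.35 ± 0.12) and the Notch target Hes1 (-0.32 ± 0.12) fell. Epithelial defence genes rose for 6 of 14 and fell for 3 on day 14, led by Lcn2, a siderophore-binding lipocalin, at 2.52 ± 0.22, the mucosal chemokine Cxcl17 at 1.48 ± 0.18 and lactoferrin (Ltf) at 2.08 ± 0.34, against Bpifb5 at -1.43 ± 0.16, Lyz1 at -0.76 ± 0.21 and Defb1 at -3.06 ± 1.09. Defb1 was -0.08 without all 19 libraries that stood apart (edgeR adjusted p = 0.935). Lcn2 was still 1.28 ± 0.21 higher on day 42, when Reg3g was not. Their counts on days 7, 21, 28 and 42 were 6, 5, 6 and 3 higher and 1, 3, 2 and 2 lower.

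For the partners of Hp, acute-phase genes rose for 5, 4, 5, 3 and 5 of 9 from day 7 to day 42, and C3 fell on day 28 (-0.69 ± 0.23). Of all genes, 13.9%, 21%, 15.9%, 19.7% and 12.6% rose on these days, and 17.8%, 25.4%, 19.4%, 18.4% and 6.77% fell. On day 28 the summed acute-phase level was 1087 to 5424 CPM in PBS (median 1329) and 1214 to 1674 after bleomycin (median 1387). PBS replicate 6 was the highest. Without all 19 libraries that stood apart, no acute-phase gene was called for bleomycin on day 28. On day 14 the protease inhibitor Serpina3n rose by 2.20 ± 0.22, ceruloplasmin (Cp) by 0.40 ± 0.08, the endotoxin co-receptor Cd14 by 0.69 ± 0.13 and the endotoxin-binding protein Lbp by 0.34 ± 0.07. On day 42 the plasma proteins Hpx (5.69 ± 0.71) and Orm1 (3.75 ± 0.70) were called higher together with all 8 tested liver genes, and the liver sum was 22850 CPM in bleomycin replicate 1. Without the 5 libraries holding other tissue Hpx was 0.27 and Orm1 0.08 on day 42, neither called, and 1 of 8 liver genes was. In that fit Orm1 was higher on days 7, 14, 21 and 28, at 1.12, 2.28, 1.40 and 1.06 (edgeR adjusted p = 0.0172, 2.78e-08, 0.000225 and 0.00795). Hpx was called on day 14 only, at 0.57 (edgeR adjusted p = 0.00346). Without all 19 libraries that stood apart, the day 28 value of Orm1 was 0.49 (edgeR adjusted p = 0.822). In the haptoglobin pathway 3 of 8 rose on day 14: haem oxygenase Hmox1 (1.73 ± 0.28), ferritin light chain Ftl1 (0.96 ± 0.27) and the biliverdin reductase Blvrb (0.59 ± 0.20). On days 7, 21, 28 and 42 there were 0, 2, 2 and 4 higher and 1, 0, 0 and 0 lower.

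For the pathway of Aldh1a1, 5, 5, 6, 5 and 1 of 14 retinoid and aldehyde genes fell from day 7 to day 42, where 17.8%, 25.4%, 19.4%, 18.4% and 6.77% of all genes fell, and 0, 1, 0, 2 and 1 rose. Without the 5 libraries holding other tissue, 3, 2, 6, 6 and 3 of 13 fell and 1, 2, 0, 1 and 0 rose. In that fit 17.1%, 25.5%, 20.9%, 21.4% and 7.67% of all genes fell and 15.7%, 23.8%, 18.6%, 23.1% and 9.26% rose. On day 14 Dhrs3, a retinal reductase, fell by 0.51 on the log2 scale, mitochondrial Aldh2 had -0.43 ± 0.11, the retinol transporter Stra6 -2.29 ± 0.73 and the retinoic acid binding protein Crabp2 -3.12 ± 1.00, and the retinoic acid synthase Aldh1a3 rose by 0.93 ± 0.35. Stra6 was 0.51 without the 5 libraries holding other tissue and Crabp2 was 0.41 without all 19 (edgeR adjusted p = 0.414 and 0.653). With all libraries, 13.9%, 21%, 15.9%, 19.7% and 12.6% of all genes rose from day 7 to day 42. Alveolar type 2 cell genes rose for 3, 3, 2, 2 and 0 of 10 and fell for 1, 3, 1, 0 and 0. Neuroendocrine genes rose for 0, 4, 2, 2 and 1 of 5 and fell for 0, 1, 0, 1 and 0, and airway cartilage genes rose for 2, 1, 4, 1 and 0 of 5. On days 7 and 14 all 10 epidermis and hair genes were called lower, with sums up to 5760 CPM in the PBS libraries of day 7, and squamous and muscle genes were called lower for 3 of 6 on both days and higher for all 6 on day 28. Without the 5 libraries holding other tissue, no epidermis and hair gene was called on days 7 and 14, 1 of 5 squamous and muscle genes was higher and 2 were lower on day 28, and no member lost its call in any comparison.

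SB525334 changed no gene of any of these lists on day 21. Of all genes, 0.403% were called on day 21 and 8.37% on day 28. On day 28, beside the club cell genes above, it left 2 defence genes higher, S100a9 (1.71 ± 0.46) and S100a8 (1.78 ± 0.51), which are neutrophil proteins, and 1 acute-phase gene lower, Cp (-0.24 ± 0.08). In the retinoid list 2 genes were lower, Aldh3a1 and Crabp2 (-4.38 ± 1.13). Lower too were 1 basal cell, 1 cartilage and 1 epidermis gene and all 6 squamous and muscle genes, whose sum reached 7017 CPM in the vehicle group. Goblet, ciliated, neuroendocrine, haptoglobin pathway, alveolar type 2 and liver genes and the transcription factors had none called on day 28. Without all 19 libraries that stood apart, which left 2 SB525334 and 2 vehicle libraries, no gene of any list was called for SB525334 on day 28, with 0.201% of all genes called. In that fit 1 goblet gene and no other gene of the lists was called for bleomycin on day 28, with 0.194% of all genes called.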

How the data were processed

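Lung and skin RNA of mice was sequenced as stranded, ribosomal-RNA-depleted total RNA, per the labels' protocols. The authors deposited a table of expected counts (estimated per gene, not normalised) and a plate-corrected table of log2 CPM values. RSEM, edgeR and GRCm38 are named in the submitters' processing notes, and the aligner and versions are not given in the sources used here. Of the deposited expected counts, 83.7% were whole, and all were rounded. No column was left unused, and no pair of lung libraries was identical.

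The 93 lung libraries were fitted together in edgeR 4.0.16 (R 4.3.3) after filterByExpr and TMM scaling, with the quasi-likelihood test, a term per group and plate, and Benjamini-Hochberg adjustment over 15647 genes at 0.05. The SE is the log2 fold change divided by the root of the F statistic. CPM values are TMM-scaled and not corrected for plate. Log2 CPM for rho used a prior count of 2 and genes with a mean of at least 1. Libraries that stood apart were those with over 15% of counts in 10 genes, with a ribosomal protein share over 1.5 times the median, or with a tissue list over 20 times its median and over 50 CPM. Lung libraries held 4.79 M to 38.34 M counts. Promoters came from a RefSeq table (GRCm38.p6).

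The members and lists were chosen with earlier results of these data known. All 9 members are described. From a list, up to 4 called genes with the smallest p are named, with others of the opposite direction. DESeq2 1.42.0, limma 3.58.1 (voom, and trend on the deposited log2 values), other scaling, filters, plates, a replicate block and left-out libraries were alternatives. A term for the ribosomal protein share, the settings of the F test and the list counts without libraries that stood apart were chosen after seeing the data. Tested on simulated counts for the day 14 comparison (15604 genes), the fit called 92 of 100 genes given a 2-fold change, 70 of 100 given a 1.5-fold one, and 7 given none. The simulated libraries had no plate effect, no change in any other group and no libraries that stood apart. Those counts therefore do not measure errors that such features cause in the real libraries.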

Additional observations from a re-analysis of the deposited data

Results flagged for a closer look

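Of 108 groups of values (9 genes in 12 groups), 9 had a single library far from the rest, where chance gives about 1 in 20. PBS day 28 replicate 2 was the highest for Scgb1a1 (39280 CPM, others 8807 to 16440), Scgb3a1 (694 CPM, others 74.5 to 271) and Scgb3a2 (3697 CPM, others 300 to 943). PBS day 7 replicate 3 was the highest for Bpifa1 (252 CPM, others 39.2 to 117) and Reg3g (49.8 CPM, others 11.4 to 28.1). PBS day 42 replicate 6 was the highest for Bpifa1 (596 CPM, others 73.1 to 247). Lowest in their groups were Scgb3a2 in SB525334 day 21 replicate 1 (245 CPM, others 301 to 354), Scgb3a2 in bleomycin day 42 replicate 1, the library with liver genes (145 CPM, others 295 to 370), and Hp in PBS day 14 replicate 6, a library with epidermis and hair genes (465.5 CPM, others 584 to 658).

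The bleomycin effect differed between days by a test of the difference itself for 5 genes. The edgeR adjusted p over the 5 days was 0.0269 for Scgb3a1, 0.0246 for Bpifa1, 0.0272 for Bpifb1, 0.0119 for Reg3g and 0.0398 for Hp. For day 42 against day 14 it was 0.0215 for Scgb3a1, 0.0104 for Bpifa1, 0.00958 for Bpifb1, 0.00265 for Reg3g and 0.00792 for Hp.

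In PBS skin libraries, which no comparison here used, the 4 highest medians were 7.12 CPM for Scgb1a1, 86.7 for Cyp2f2, 37.6 for Aldh1a1 and 170 for Hp. The Scgb1a1 median was small beside its 10970 CPM in PBS lung. Scgb3a2 likewise had a median of 0.263 CPM in PBS skin and 412 in PBS lung. Whether the Scgb1a1 counts of skin libraries came from skin cells was not tested.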

How the results depend on the processing

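Over 16 alternatives to each of the 63 member results (9 genes, 7 comparisons), 902 values kept direction and side of the threshold, 32 lost the call, 69 gained one and 5 turned their sign. A further 75 values that were not called on either side differed in sign and are counted among the 902. The 5 were all on day 28: Aldh1a1 was 0.16 in plate 2 alone and 0.027 without all libraries of unusual composition, Cyp2f2 was 0.12 in plate 2 alone, and Reg3g was -0.23 without all such libraries and -0.31 without those high in ribosomal protein genes. The cause was not tested.

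The number of members called higher or lower moved as follows. On day 7, higher was 1 and became 3 with voom weights or only the 2 groups compared, 0 in plate 1, and 2 in plate 2, without the high ribosomal libraries or without all unusual ones; lower was 2 and became 1 with the deposited log2 values, in plate 2 or without libraries dominated by 10 genes, and 0 in plate 1. On day 14, with 4 and 2, plate 1 alone gave 0 and 0, with 1 library a group. On day 21, higher was 1 and became 2 with the ciliated term, the deposited log2 values, voom weights, 2 groups, plate 2, the ribosomal term, or without the high ribosomal or all unusual libraries, and 0 in plate 1; lower was 2 and became 4 with voom weights, 2 groups, plate 2, the ribosomal term, or without either set of libraries, and 1 in plate 1. On day 28, higher was 1 and became 5 with voom weights, 2 with the ciliated term, DESeq2 or without libraries holding other tissue, and 0 with 2 groups, either plate, the ribosomal term, or without either set; lower was 2 and became 0 with 2 groups, in plate 2, or without either set. On day 42, lower was 2 and became 6 with voom weights or without all unusual libraries, 7 without the high ribosomal ones, 5 with 2 groups, 4 with the ribosomal term, 1 without a plate term or in plate 2, and 0 in plate 1. SB525334 on day 21 had 0 higher and 1 with the ciliated term or 2 with voom weights, and on day 28 0 and 1 with the ciliated term. The F test over days called 5 members, and 8 without all unusual libraries.

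Leaving out 1 library at a time, with the scaling and dispersions of the full fit kept, gave 1 to 2 members higher on day 7, 3 to 4 on day 14, 1 to 2 on day 21, 0 to 4 on day 28 and 0 to 0 on day 42, and 1 to 2, 2 to 2, 2 to 3, 2 to 2 and 1 to 2 lower. For SB525334 it gave 0 to 0 higher on day 21 and 0 to 1 on day 28, with 0 lower. In all, 30 of 963 such values changed a call, in 13 of 63 results. Hp under SB525334 on day 28 passed without any 1 of 5 libraries (0.37 to 0.44).

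With the replicate number as a block, all 63 results kept their call, and the F test called 4 members (Hp at an edgeR adjusted p of 0.0598). The numbers did not pair the libraries: same-numbered deviations correlated from -0.564 to 0.735, with 0 to 4 of 7 or 8 pairs over 0.1. What depth limits was not compared between members, and the shallowest lung library held 4.79 M counts.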
